A study of Homo sapiens with 6 samples.

Results

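Aminoacyl-tRNA synthetases were examined in HK-2 cells with and without overexpression of PPM1K. The genes were taken by their symbols. The list holds 35 of the 31369 genes in the count table, of which 19 encode cytosolic enzymes and 16 mitochondrial enzymes. A filter on low counts was passed by 34 of the 35, and VARS2 was the member that did not pass.

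HK-2 is an established epithelial cell line from the human kidney proximal tubule. Its RNA was sequenced as a stranded mRNA library in 3 samples of a control group (NC, genotype entry WT) and 3 samples of a group overexpressing PPM1K (OE, transfected with a PPM1K plasmid). PPM1K encodes a mitochondrial phosphatase that activates the breakdown of branched-chain amino acids. All 6 samples carry the label Day10 and a treatment entry naming chronic kidney disease, and what the NC cells received in place of the plasmid is not given in the sources used here. The cell line entries name HK-2 in one sample and other HK numbers in the rest, whereas the study describes HK-2 alone. The sample titles read shControl and shPPM1K, which would be a knockdown, whereas the genotype entries give overexpression. The count of PPM1K was 37, 19 and 53 in the NC samples and 3294, 3531 and 2919 in the OE samples, a log2 fold change of 6.39, so the data follow the genotype entries and not the titles. Nothing in the labels states whether the samples of a group came from separate cultures, so p-values measure the spread between these samples, which may be technical.

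Each library held 34635770 to 39850802 counts. A count above 0 was found for 26478 genes in NC replicate 2, against 22094 to 22913 in the other 5 samples, so this library stands apart. The epithelial keratins KRT7, KRT8, KRT18 and KRT19 were all present, at a summed 3271 to 3573 CPM, the counts scaled to the size of the library, in NC and 2597 to 2814 in OE, with KRT7 higher and KRT8 and KRT19 lower in OE on edgeR's adjusted p. Of 7 proximal tubule markers, LRP2, CUBN and AQP1 had 6 counts or fewer in every sample, and the summed level of the list was 4.54 to 5.57 CPM in NC and 4.97 to 5.85 in OE. Within it GGT1 was called lower (log2 fold change -1.09) and MME rose (0.41). For 6 markers of blood, endothelial and stromal cells the sum was 17.1 to 18.1 CPM in NC and 12.5 to 12.9 in OE, with PTPRC, PDGFRB and COL1A2 at 6 counts or fewer throughout. COL1A1 fell (log2 fold change -0.99), whereas PECAM1 (0.52) and VWF (0.41) rose. The part of these differences in the results was not tested.

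An aminoacyl-tRNA synthetase joins an amino acid to its tRNA, the step that matches the genetic code to the amino acid placed in a protein. Human cells hold one set of these enzymes for the cytosol and another for the mitochondrial matrix, both encoded in the nucleus, and GARS1 and KARS1 each supply both compartments. Several cytosolic enzymes are bound together in the multisynthetase complex, while others act alone or as small complexes. The transcription factor ATF4, which is made when amino acids are short or the endoplasmic reticulum is stressed, is known to raise the transcription of many cytosolic synthetase genes.

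In the OE group most cytosolic genes were up-regulated, while most mitochondrial genes did not pass the test. A gene was called where the quasi-likelihood test of edgeR, adjusted by Benjamini-Hochberg over all 15878 tested genes, gave an adjusted p under 0.05 and expression in OE was more than 2 times, or less than 0.5 of, that in NC. Of 19 cytosolic genes, 6 were called higher (WARS1, SARS1, MARS1, YARS1, GARS1 and AARS1), where 1.73% of all tested genes were called higher. By edgeR and by DESeq2 0 cytosolic genes were called lower, where edgeR called 3.79% of all tested genes lower. On the adjusted p alone, 16 cytosolic genes rose and 3 fell, against 24.9% and 23.7% of all tested genes. In every one of the 16 all OE samples lay above all NC samples, which held for 28.2% of all tested genes, and in the other 3 all OE samples lay below, which held for 27.1%. The median log2 fold change of the cytosolic genes was 0.75 with a range of -0.40 to 1.49, while the median of all tested genes was -0.0032.

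Of 15 tested mitochondrial genes, 0 were called in either direction by edgeR or by DESeq2, where edgeR called 1.73% of all tested genes higher and 3.79% lower. On the adjusted p alone, TARS2 and NARS2 rose, IARS2, SARS2 and RARS2 fell and 10 did not pass. Among all tested genes, 24.9% rose and 23.7% fell on the adjusted p. The median log2 fold change of the mitochondrial genes was -0.075 with a range of -0.35 to 0.49. Groups did not overlap in 3 mitochondrial genes that were higher in OE and 5 that were lower, against 28.2% and 27.1% of all tested genes. Without NC replicate 2, 6 cytosolic and 0 mitochondrial genes were called, and the medians were 0.77 and -0.018. The log2 fold changes of 6 mitochondrial genes that did not pass moved by more than 1.5 times or changed sign without it. FARS2 went from 0.25 to 0.14, LARS2 from 0.09 to 0.14 and MARS2 from -0.09 to 0.04, and AARS2, WARS2 and YARS2 stayed between -0.02 and 0.03.

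**Figure D1:**
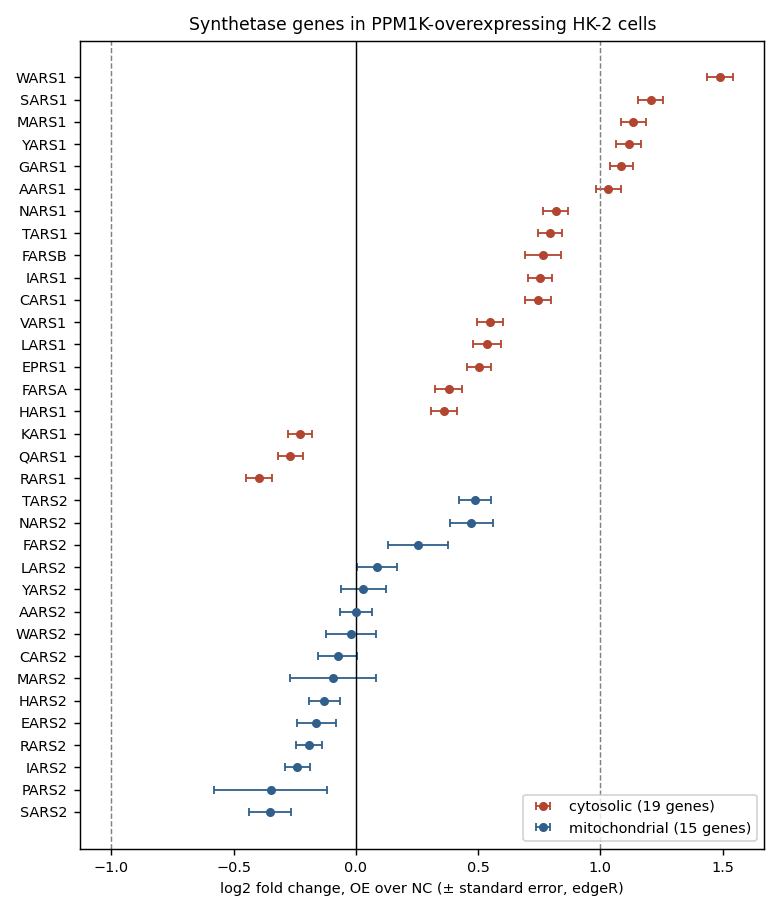
Log2 fold change of OE over NC (x axis) for each of the 34 tested synthetase genes, cytosolic in red and mitochondrial in blue, with bars of 1 standard error from edgeR and dashed lines at 2-fold. The 6 called genes lie to the right of the dashed line at 1, RARS1, QARS1 and KARS1 lie below 0, and the mitochondrial genes lie between -0.35 and 0.49.

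The share of each library taken by these genes was also compared. The 19 cytosolic genes took 0.261%, 0.258% and 0.253% of all counts in the NC samples and 0.420%, 0.436% and 0.435% in the OE samples. The mean share (± SD, n = 3) was 0.257% ± 0.00366 in NC, and in OE it was 0.430% ± 0.00883, or 1.67-fold higher. The 16 mitochondrial genes took 0.0450%, 0.0443% and 0.0454% in NC and 0.0417%, 0.0424% and 0.0416% in OE, which is 0.933 of the control mean. IARS2, which fell, weighs most in this sum. It gave 5974 of the 15644 mitochondrial counts in NC replicate 1 and 5516 of 15679 in OE replicate 1. The lower share is thus not a fall of all 16 genes. Shares of counts did not overlap between the groups in either compartment. In such bulk RNA a change in some of the cells and a smaller change in all of them cannot be told apart, nor can fewer cells of a kind and less RNA per cell.

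The promoter sequences were examined because many cytosolic genes rose together. The motif TGATGNAA, the core of the C/EBP-ATF response element that ATF4 is known to bind, was searched on both strands of RefSeq windows (GRCh38.p14) that reach from 250 bases before the annotated start of a gene to 50 bases after it. Windows were found for 30 of the 35 members, 16 cytosolic and 14 mitochondrial, and AARS2, LARS1, VARS1, VARS2 and YARS1 were not matched. The motif was in a window of 7 of 16 cytosolic genes and 1 of 14 mitochondrial genes. For comparison, it was in 3.62% of all 35116 windows, and 2.76% of the tested genes with a window had it. The form TGATGCAA, singled out after the values were seen, was in 6 of the cytosolic genes and in 0 of the mitochondrial genes. It was in 0.72% of the tested genes with a window and in 0.866% of all windows. The 7 cytosolic sequences and the mitochondrial one are shown since they are the members' windows that hold the motif. Each is written 5′ to 3′ on the strand that carries the motif, with the motif in capitals and 10 bases on each side.
AARS1 (chr16:70289676-70289703, plus strand): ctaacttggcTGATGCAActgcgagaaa
MARS1 (chr12:57488054-57488081, minus strand): aatccctcgcTGATGCAAccggaaccgg
GARS1 (chr7:30594835-30594862, minus strand): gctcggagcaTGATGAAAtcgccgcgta
NARS1 (chr18:57621805-57621832, minus strand): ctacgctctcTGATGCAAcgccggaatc
TARS1 (chr5:33440957-33440984, minus strand): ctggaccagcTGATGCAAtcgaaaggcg
IARS1 (chr9:92293693-92293720, plus strand): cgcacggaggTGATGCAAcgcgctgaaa
CARS1 (chr11:3057408-3057435, plus strand): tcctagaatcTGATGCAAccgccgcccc
YARS2 (chr12:32756077-32756104, minus strand): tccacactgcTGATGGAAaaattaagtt

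The motif began within 33 bases of the annotated start in 6 of these 8 genes, at -33 in GARS1, -13 in IARS1, -4 in MARS1, -2 in CARS1, 3 in TARS1 and 15 in NARS1, counting the annotated start base as 1. In AARS1 it began at -187 and in YARS2 at -197. These positions count from RefSeq starts, which for AARS1 is chr16:70289506. The GENCODE spans of all 7 cytosolic genes begin further upstream, so their motifs lie inside those spans. That of AARS1, on the minus strand, begins at 70289707. MARS1, on the plus strand, has its span from 57475445 and its RefSeq start at 57488068. Distances from the start thus depend on the annotation used. CARS1, GARS1 and TARS1 have more than one annotated start, and the motif is in the window of only one of them. The 7 cytosolic genes with the motif had log2 fold changes of 0.74 to 1.13 with a median of 0.82. The 9 cytosolic genes that have a window without these letters ranged from -0.40 to 1.49 with a median of 0.38. This group holds both RARS1, which fell most, and WARS1 and SARS1, which rose most. A match is a description of these letters and not a binding site or a cause.

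**Figure D2:**
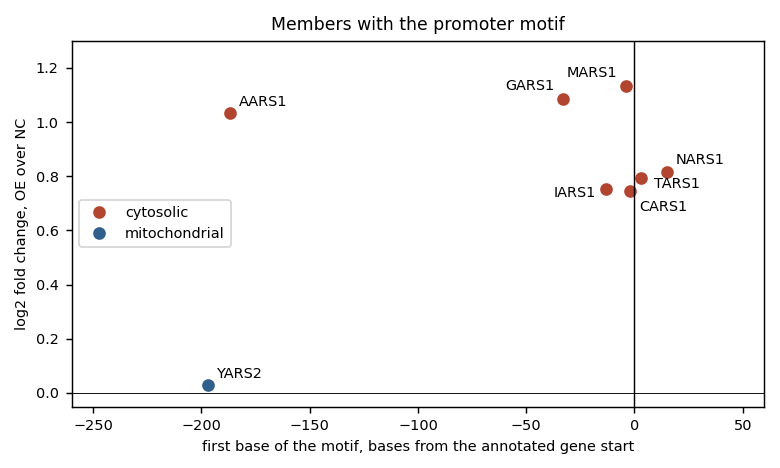
Log2 fold change of OE over NC (y axis) against the position of the first base of the motif TGATGNAA, in bases from the annotated gene start (x axis, vertical line at the start), for the 8 members that hold it. The 7 cytosolic genes (red) lie between 0.74 and 1.13, and the mitochondrial YARS2 (blue) lies at 0.03.

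WARS1, the tryptophanyl-tRNA synthetase (ENSG00000140105.18, chr14:100333790-100376805), rose most among the members. Spans are those of GENCODE release 44 on GRCh38. It had 80.7, 72.0 and 77.2 CPM in the NC samples and 225, 211 and 210 CPM in the OE samples. The lowest OE sample was far above the highest NC sample, and the log2 fold change (± standard error, used for all such values here) was 1.49 ± 0.05 at an adjusted p of 7.6e-15 by edgeR's quasi-likelihood test. WARS1 is also known as a gene induced by interferon. Its mitochondrial partner WARS2 had 10.3, 9.86 and 8.70 CPM in NC and 9.72, 8.52 and 10.3 CPM in OE. These values overlap, with a log2 fold change of -0.02 and a standard error of 0.10.

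SARS1, the seryl-tRNA synthetase (ENSG00000031698.13, chr1:109213918-109238182), had 227, 214 and 220 CPM in NC and 512, 523 and 490 CPM in OE. Its log2 fold change was 1.20 ± 0.05 at an adjusted p of 6.1e-14, and SARS1 overlaps no other annotated gene. SARS2, its mitochondrial partner, moved the other way. It had 14.5, 14.7 and 13.7 CPM in NC and 10.5, 11.6 and 11.6 CPM in OE, with no overlap and a log2 fold change of -0.35 ± 0.09 at an adjusted p of 0.0018.

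MARS1, the methionyl-tRNA synthetase (ENSG00000166986.15, chr12:57475445-57517569), charges both initiator and elongator tRNA and was the one called member of the multisynthetase complex. It had 113, 110 and 114 CPM in NC and 250, 254 and 234 CPM in OE, a log2 fold change of 1.13 ± 0.05 at an adjusted p of 1.8e-13. Its 3′ end overlaps DDIT3 on the other strand, a stress-response transcription factor gene that itself went from 47.4 ± 1.45 to 100.3 ± 6.54 CPM (SD, n = 3 in each group). Whether counting used the strand is not stated, so reads of MARS1 and DDIT3 in the shared part may not be told apart. MARS2 had 2.76, 3.27 and 2.34 CPM in NC and 2.25, 3.01 and 2.56 CPM in OE, which overlap. At 83 to 119 counts a sample MARS2 was measured less precisely, with a log2 fold change of -0.09 and a standard error of 0.18.

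YARS1, the tyrosyl-tRNA synthetase (ENSG00000134684.12, chr1:32775237-32818031), had 144, 135 and 139 CPM in NC and 295, 319 and 291 CPM in OE. The groups lay far apart, with a log2 fold change of 1.11 ± 0.05 at an adjusted p of 3.4e-13. Its partner YARS2, the mitochondrial gene with the motif, had 12.0, 10.9 and 11.4 CPM in NC and 10.5, 12.4 and 12.1 CPM in OE. These overlap, and the log2 fold change was 0.03 with a standard error of 0.09.

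GARS1, the glycyl-tRNA synthetase (ENSG00000106105.15, chr7:30580533-30634033), has no separate mitochondrial partner gene. It had 183, 180 and 186 CPM in NC and 387, 396 and 382 CPM in OE, a log2 fold change of 1.09 ± 0.05 at an adjusted p of 1.5e-13. The transcript that runs away from the same promoter region, GARS1-DT, moved the other way and was looked at after the values were seen. It had 17.6, 20.0 and 17.1 CPM in NC and 15.9, 13.6 and 12.4 CPM in OE, a log2 fold change of -0.39 at an adjusted p of 0.0018.

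AARS1, the alanyl-tRNA synthetase (ENSG00000090861.17, chr16:70251983-70289707), was the called member nearest to the threshold. It had 112, 104 and 111 CPM in NC and 214, 228 and 226 CPM in OE, and its log2 fold change was 1.03 ± 0.05 at an adjusted p of 9.1e-13. With upper quartile normalization it was 0.99 and with limma on log2(FPKM + 1) it was 0.98, so AARS1 was not called there. Its partner AARS2 had 34.3, 32.7 and 34.2 CPM in NC and 34.1, 34.7 and 32.4 CPM in OE, a log2 fold change of 0.00 with a standard error of 0.06. Against a fold change of 2 as the null in edgeR, 2 of the 6 passed, SARS1 and WARS1.

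**Figure D3:**
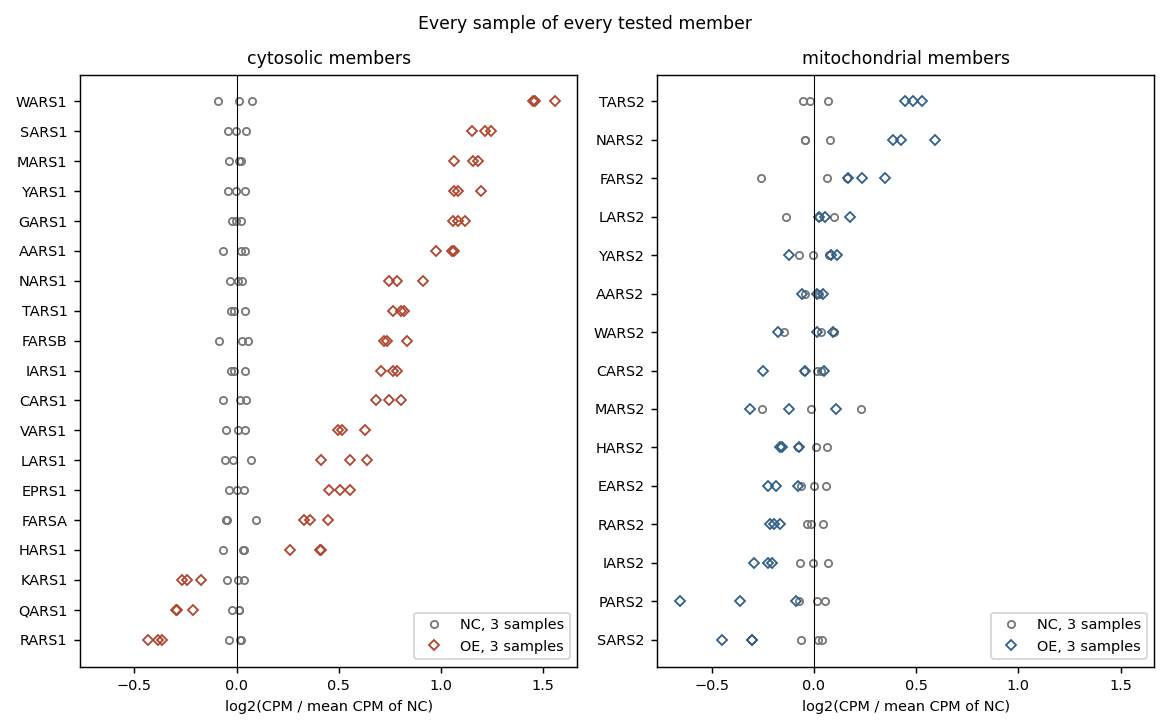
Level of every tested member in every sample, as log2 of CPM over the mean CPM of NC (x axis), with cytosolic genes on the left, mitochondrial genes on the right, NC as circles and OE as diamonds (3 samples each). In all 19 cytosolic genes the OE diamonds lie apart from the NC circles, to the right in 16 and to the left in RARS1, QARS1 and KARS1. In 7 of the 15 mitochondrial genes the groups overlap. Among all tested genes, every OE sample was above every NC sample in 28.2% and below in 27.1%.

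Below the 2-fold threshold, the cytosolic genes with the smallest adjusted p were TARS1, NARS1, IARS1, CARS1 and FARSB. NARS1, the asparaginyl-tRNA synthetase and the gene just outside the threshold, had 282, 278 and 272 CPM in NC and 466, 479 and 522 CPM in OE, a log2 fold change of 0.82 at an adjusted p of 6.2e-11. TARS1, which charges threonine, had 248, 238 and 236 CPM in NC and 409, 420 and 424 CPM in OE, a log2 fold change of 0.79 at an adjusted p of 2.7e-11. In both genes every OE sample was above every NC sample, and neither overlaps another annotated gene. IARS1, the isoleucyl enzyme of the complex, had 136, 141 and 135 CPM in NC and 224, 233 and 236 CPM in OE, a log2 fold change of 0.75 at an adjusted p of 6.9e-11. CARS1, which charges cysteine, had 79.5, 75.1 and 81.2 CPM in NC and 132, 137 and 126 CPM in OE, a log2 fold change of 0.74 at an adjusted p of 2.7e-10.

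The phenylalanine enzyme is built from a catalytic α subunit, FARSA, and a β subunit, FARSB, in equal numbers. FARSB had 17.8, 19.3 and 19.7 CPM in NC and 31.6, 33.8 and 31.2 CPM in OE, a log2 fold change of 0.76 ± 0.07 at an adjusted p of 3.0e-08. FARSA rose less, with a log2 fold change of 0.38 ± 0.06 at an adjusted p of 8.4e-06. The remaining genes that rose were VARS1, LARS1, EPRS1 and HARS1, with log2 fold changes of 0.55, 0.54, 0.50 and 0.36 and adjusted p from 3.2e-08 to 1.1e-05.

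RARS1, QARS1 and KARS1, the arginyl, glutaminyl and lysyl enzymes, were the cytosolic genes that fell, and all are members of the multisynthetase complex. RARS1 had 75.9, 78.7 and 78.8 CPM in NC and 60.3, 59.5 and 57.6 CPM in OE, a log2 fold change of -0.40 ± 0.05 at an adjusted p of 2.2e-06. QARS1 had 102, 102 and 100 CPM in NC and 87.5, 82.6 and 83.0 CPM in OE, a log2 fold change of -0.27 ± 0.05 at an adjusted p of 0.00014. In both, each OE sample was below each NC sample. KARS1 had 186, 176 and 182 CPM in NC and 161, 153 and 150 CPM in OE, a log2 fold change of -0.23 ± 0.05 at an adjusted p of 0.00065. Their falls were smaller than the rises of the called genes and no fold change reached 0.5.

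Grouped by role, the 7 genes of the multisynthetase complex split into 4 that rose (MARS1, IARS1, LARS1 and EPRS1) and the 3 that fell, with a median log2 fold change of 0.50. All 12 cytosolic members outside the complex rose, 5 of them called, with a median of 0.81 and a range of 0.36 to 1.49. These counts, and those by class and scaffold below, are to be read against all tested genes. Of all tested genes 24.9% rose and 23.7% fell on the adjusted p, and 1.73% were called higher. TARS3, a further cytosolic threonyl-tRNA synthetase gene that is not among the members and is named here after its values were seen, fell, with a log2 fold change of -0.32 at an adjusted p of 0.0064. The difference between these groups was not tested. Synthetases fall into catalytic classes that differ in the architecture of the active site. In class I, 7 of 9 cytosolic genes rose and 2 fell (median 0.74), and in class II, 8 of 9 rose and 1 fell (median 0.79), while EPRS1 holds an active site of each class. Of the 3 scaffold proteins of the complex, AIMP1 and AIMP2 rose and EEF1E1 did not pass, with a median of 0.32. EEF1E1 had 41 to 57 counts a sample and a standard error of 0.23, so it was measured less precisely.

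Among the mitochondrial enzymes, TARS2 and NARS2 were the genes that rose. TARS2, which charges threonine, had 27.0, 29.3 and 27.7 CPM in NC and 39.2, 40.4 and 38.1 CPM in OE, a log2 fold change of 0.49 ± 0.07 at an adjusted p of 3.0e-06. NARS2, which charges asparagine, had 10.3, 10.3 and 11.2 CPM in NC and 16.03, 14.3 and 13.9 CPM in OE, a log2 fold change of 0.47 ± 0.09 at an adjusted p of 0.00015. In both, every OE sample was above every NC sample.

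IARS2, the isoleucyl enzyme and the mitochondrial gene with the highest level per length, had 172, 164 and 180 CPM in NC and 149, 147 and 141 CPM in OE. Its log2 fold change was -0.24 ± 0.05 at an adjusted p of 0.00058, opposite in sign to that of IARS1. RARS2, for arginine, had 59.3, 58.7 and 62.0 CPM in NC and 52.4, 51.7 and 53.5 CPM in OE, a log2 fold change of -0.19 ± 0.05 at an adjusted p of 0.0056. RARS1 and RARS2 thus both fell. Without NC replicate 3 the log2 fold change of RARS2 was -0.16 at an adjusted p of 0.0502, just past the threshold. The other mitochondrial genes that did not pass had log2 fold changes from -0.35 (PARS2, standard error 0.23, 35 to 54 counts a sample) to 0.25 (FARS2, standard error 0.12). VARS2 had 2, 2 and 5 counts in NC and 1, 0 and 1 in OE, too few for a test, and it shares its strand and part of its length with a second annotated gene.

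Set against each other, most cytosolic genes gained on the mitochondrial gene for the same amino acid. The deposited FPKM values were divided within each sample for 16 pairs of partners. The ratio was higher in every OE sample than in every NC sample in 14 pairs, lower in RARS1/RARS2 and overlapping in FARSA/FARS2. The share for ratios of other genes was not computed. Among single tested genes, every OE sample was above every NC sample in CPM in 28.2% and below in 27.1%. EPRS1 is in EPRS1/EARS2 and EPRS1/PARS2, and FARS2 is in FARSA/FARS2 and FARSB/FARS2, so the pairs are not independent. Each ratio also carries the cytosolic change already given. For SARS1/SARS2 the ratio was 12.6, 11.7 and 12.9 in NC and 39.5, 36.4 and 34.2 in OE, a 2.95-fold increase of the mean. For WARS1/WARS2 it was 4.71, 4.40 and 5.34 in NC and 13.9, 14.9 and 12.3 in OE, a 2.84-fold increase. MARS, YARS, AARS and IARS pairs followed with 2.33-fold, 2.13-fold, 2.05-fold and 1.99-fold increases.

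Among the 14 pairs, the ratio rose least for threonine and asparagine, where both partners rose, with folds of 1.24 and 1.28. For RARS1/RARS2 it went from 1.13 ± 0.0326 to 0.978 ± 0.0372 (SD, n = 3 in each group), a fold of 0.868. FARSA/FARS2 had 25.6, 31.0 and 25.0 in NC and 29.4, 29.0 and 30.1 in OE, so the change of 1.08-fold was within the spread between samples (exact two-sided permutation p = 0.4). The overlap came from the value of 31.0 in NC replicate 2, and without that library the ratio was higher in every OE sample in 15 pairs. In the other 15 pairs the exact two-sided permutation test gave p = 0.1, the smallest that 3 against 3 samples allow, and 0.107 after Benjamini-Hochberg adjustment over the 16 pairs, so no single pair could pass 0.05.

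**Figure D4:**
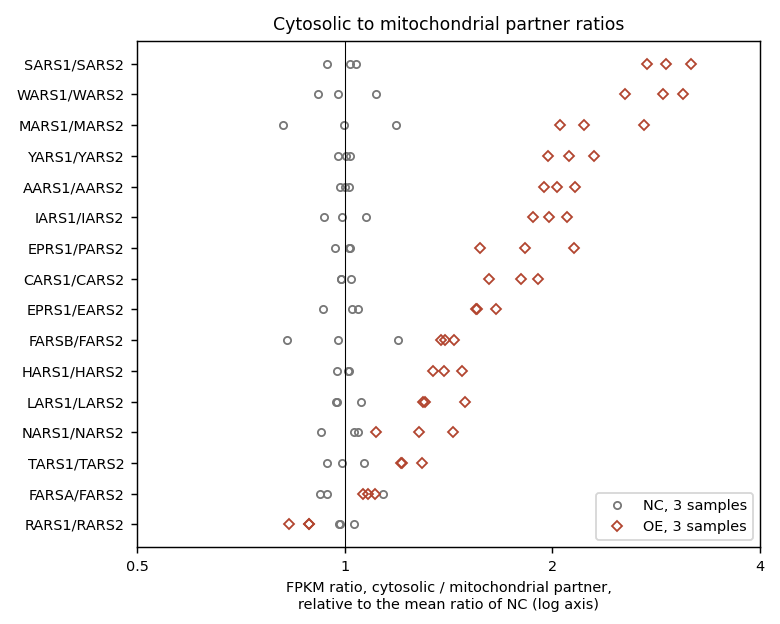
Ratio of cytosolic to mitochondrial partner FPKM in each sample, divided by the mean ratio of the NC samples (x axis, log scale), for 16 pairs ordered by the change. OE diamonds lie to the right of all NC circles in 14 pairs, among the circles in FARSA/FARS2 and to the left in RARS1/RARS2.

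Levels of different genes were compared as CPM per kilobase of the MANE Select transcript, since FPKM is mostly relative to another length. For 30 of the 35 members the length implied by count and FPKM was a constant 1.07 times (within 1%) that of all annotated exons of the gene together, which among these 30 was up to 7.27 times the MANE Select length. NARS2, RARS2, TARS2, VARS2 and YARS1 did not follow this. On the per-kilobase scale SARS1 was highest in both groups, with 115 in NC and 266 in OE. NARS1 came next with 100.4 and 177. KARS1 followed in NC with 91.1 and had 77.7 in OE, where GARS1 (75.1 to 159), TARS1 (90.1 to 156), YARS1 (57.0 to 124), MARS1 (40.2 to 88.1), WARS1 (29.0 to 81.5) and HARS1 (61.2 to 78.6) also stood above it. In NC, KARS1 and TARS1 were within their spread of each other. FARSB (2.81 to 4.76) was the lowest cytosolic gene, and in NC it was below all tested mitochondrial genes but MARS2 and PARS2. Its place among the mitochondrial genes rests on a MANE Select transcript of 6761 bases, the longest of the members. In plain CPM its mean in NC was 19.0, still the lowest of the cytosolic genes. Only IARS2, RARS2, HARS2, AARS2, TARS2 and CARS2 of the tested mitochondrial genes had a higher mean CPM in NC. Per kilobase, PARS2 (0.633 to 0.497) and MARS2 (0.921 to 0.861) were the lowest of the tested members.

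**Figure D5:**
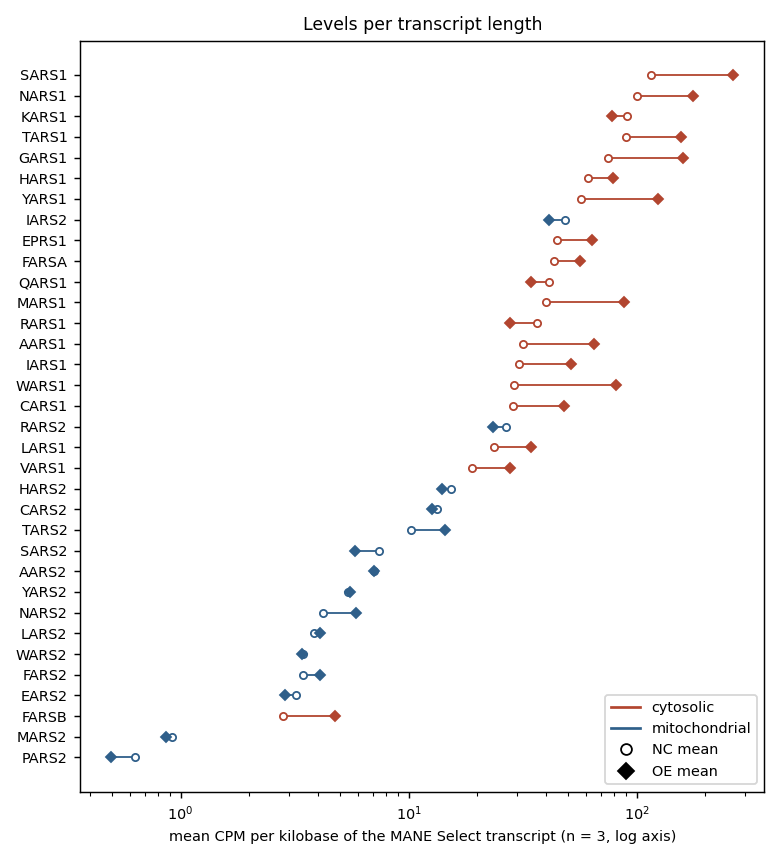
Mean level of each tested member as CPM per kilobase of its MANE Select transcript (x axis, log scale, n = 3), with NC as open circles joined to OE as filled diamonds, cytosolic in red and mitochondrial in blue. SARS1 lies highest in both groups and PARS2 lowest, IARS2 and RARS2 are the highest mitochondrial genes, and FARSB is the lowest cytosolic gene.

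Other genes of the pathway were taken as lists, to be read against the 24.9% of all tested genes that rose and the 23.7% that fell on the adjusted p. Of 8 genes for tRNA maturation and export, 6 rose and 1 fell (median log2 fold change 0.40). XPOT, the nuclear exporter of tRNA, had the largest change among them, with 0.92 (standard error 0.06, adjusted p = 2.4e-11) and a mean of 138 CPM in NC and 260 CPM in OE. Of 3 genes that repair mischarged tRNA, 2 rose, among them the D-aminoacyl-tRNA deacylase gene DTD1 with a log2 fold change of 0.65 at an adjusted p of 2.9e-08.

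In the routes to selenocysteinyl-, formyl-methionyl- and mitochondrial glutaminyl-tRNA, 4 of 8 genes rose and the others did not pass. SEPHS2, which makes selenophosphate, had a log2 fold change of 0.67 at an adjusted p of 8.6e-08. The elongation factors serve to bring charged tRNA to the ribosome and to move it along, some of them indirectly. Of 6 cytosolic ones 1 fell and the others did not pass (median log2 fold change 0.072), and of 4 mitochondrial ones 1 rose (median 0.025). A list of 3 further synthetase genes had 1 that rose and TARS3, which fell. No gene of these lists was called.

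The genes of several members overlap other annotated genes, which makes their counts uncertain. EPRS1, FARSB, NARS1, RARS1, SARS1, TARS1, PARS2 and RARS2 overlap none. Of the called genes, WARS1, MARS1, YARS1, GARS1 and AARS1 overlap at least one gene on the other strand. HARS1 and HARS2 overlap at their starts, on opposite strands, and had log2 fold changes of 0.36 (adjusted p = 1.1e-05) and -0.13 (adjusted p = 0.11). WARS2 overlaps the antisense gene WARS2-AS1, which was looked at after the values were seen. WARS2-AS1 had 21.8, 22.4 and 21.1 CPM in NC and 34.5, 33.8 and 34.9 CPM in OE, a log2 fold change of 0.66 at an adjusted p of 8.1e-08, while WARS2 did not pass.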

How the data were processed

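Reads of 6 HK-2 samples (3 NC, 3 OE) were cleaned with FASTX-Toolkit and aligned to GRCh38 with HISAT2 by the authors, and uniquely mapped reads were counted per gene. The notes of the submitters list mm10 beside GRCh38. Annotation, counting program and strand setting are not given in the sources used here. The deposited counts are not normalized, and the deposited FPKM were computed by the authors from the same reads.

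Counts were analysed with edgeR 4.0.16 in R 4.3.3 (filterByExpr, TMM, glmQLFit and glmQLFTest) over 15878 genes, with Benjamini-Hochberg adjustment and the thresholds of the study (adjusted p under 0.05, fold above 2 or below 0.5). The study used DESeq2, here an alternative (1.42.0), beside limma 3.58.1 on log2(FPKM + 1) and log2(FPKM + 0.1), other normalizations, no filter and each sample left out. The standard error of a log2 fold change is its size divided by the root of F, and CPM is the count scaled to the TMM-adjusted library size. Partner ratios were compared by an exact two-sided permutation test. The fit was tested on simulated data. Gene spans and lengths come from GENCODE release 44.

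The totals of 34635770 to 39850802 counts leave little counting error for all but the lowest members. No pair of replicates agreed within sampling noise, since the mean chi-square per gene was 3.77 to 8.22. The named members are all called ones, up to 5 not called with the smallest adjusted p under 0.05 in each compartment and direction, and partners of called ones. Of the other lists, genes under an adjusted p of 0.05 with a fold past 1.5 were named. The members and lists were chosen with earlier results of these data known.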

Additional observations from a re-analysis of the deposited data

How the results depend on the processing

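The 6 called cytosolic genes were the same with DESeq2, DESeq2 size factors, no filter, limma on log2(FPKM + 0.1), the replicate block and each sample left out. Upper quartile normalization and limma on log2(FPKM + 1) called 5, without AARS1, and edgeR's test against a fold change of 2 called 2 (SARS1 and WARS1). With the replicate block, 6 were called, 16 rose, 3 fell, and the medians were 0.75 and -0.079, so it changed no call. Same-numbered samples had correlations of -0.0034, -0.066 and -0.054 between their deviations within the groups, and 0 of 6 samples correlated best with its own number, so the numbers were not taken as pairs. The cytosolic median was 0.71 with upper quartile normalization, 0.68 with limma on log2(FPKM + 1) and 0.73 to 0.78 with each sample left out. The mitochondrial median was -0.11, -0.027 and -0.090 to -0.018 in the same order, the last value without NC replicate 2. With upper quartile normalization 5 mitochondrial genes fell on the adjusted p, EARS2 (adjusted p = 0.044 by edgeR) and HARS2 (0.0399) being added. With each sample left out, 2 to 4 fell, RARS2 being lost without NC replicate 3 and EARS2 added without OE replicate 3 (adjusted p = 0.0418 by edgeR). The cause was not tested. With CPM in place of FPKM 14 partner ratios were higher in every OE sample, and 14 with each sample left out, or 15 without NC replicate 2. In CPM per kilobase of the MANE Select transcript, an alternative chosen after seeing the data, the NC ratio of HARS1/HARS2 turned from 0.830 to 4.001 and that of FARSB/FARS2 from 2.39 to 0.815, since the length differs, so FPKM does not give the order of partners. The median of all genes was -0.13 with DESeq2 and with no filter, which take in 16772 and 31369 genes. PARS2 and MARS2, the lowest tested members, limit what could be seen to large changes.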
